A study of Caenorhabditis elegans with 3 samples.

Results

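The cytosolic ribosomal protein genes of the nematode Caenorhabditis elegans are described here in adults set against a mixed reference. Members were chosen by a rule on names, with earlier results of these data known. They are rows of the array annotation with a single gene symbol that starts with rpl-, rps- or rla- and a digit. This gave 64 rows of 63 genes among 19293 genes tested, since rpl-31 has 2 rows that were averaged. All 63 had values on all 3 arrays, and 38 belong to the large and 25 to the small ribosomal subunit. No symbol of the rla- form occurred in the annotation. RefSeq lists 78 symbols of these forms for the organism, counted without regard to gene type. The 63 are most but not all of these symbols, and ribosomal proteins under other names are not counted.

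The ribosome is the particle that reads mRNA and joins amino acids into protein. Its small subunit decodes the mRNA and its large subunit forms the peptide bonds, and each is built from ribosomal RNA and many different proteins, most of them encoded by 1 gene each in this worm. A few are encoded by a pair of paralogues, which are copies of 1 ancestral gene. In C. elegans the germ line, which fills much of the adult body, makes large amounts of ribosomes for oocytes. Many genes of the X chromosome are kept silent in much of the germ line. Whether this bears on the values below was not tested.

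Each of the 3 two-colour DNA microarrays held the mixed wild-type reference in channel 1 and mRNA of 1 preparation of adults in channel 2. In the labels the adult samples carry the marks TP12 and "w/ emb 3", taken to mean that embryos were present. They name no strain for the adults and no makeup for the reference. The preparations, numbered 1 to 3, are the replicates of a single group. Nothing says that they were separate cultures, so the p-values measure only the spread between these arrays, which may be technical. The titles of the arrays also end in different dates, whose meaning is not stated. Preparation, array and this date cannot be told apart, and no untreated or second group exists. Each array held 19832 to 19904 measured values, and the number of arrays limits the precision.

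The value of a gene is the log2 ratio of the channels as deposited by the authors. The median of each array lies near 0, and the normalisation was not given. A change shared by most transcripts would therefore not be seen. The direction of the ratio is not stated and is taken as likely adults over reference, from the channel order and from marker genes. Of 10 oocyte and eggshell genes 9 passed as higher, and so did 7 of 7 germline genes, while 6 of 8 larval moulting genes and 28 of 30 major sperm protein genes passed as lower. The yolk protein gene vit-2 stood at 0.99 ± 0.41 (SD, n = 3), and the other 2 measured yolk genes did not pass. Of neuronal genes 3 of 6 were lower, of body wall muscle genes 0 of 5 passed in limma, and of 5 intestinal genes 1 was higher and 1 lower. Under the opposite direction every "higher" and "lower" below would exchange places. The arrays come from whole animals, in which more or fewer cells of a type and more or less RNA per cell cannot be told apart.

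As a family the ribosomal protein genes lay close to the reference. Their mean log2 ratios had a median of 0.03 and quartiles of -0.18 and 0.20, beside a median of 0.02 and quartiles of -0.26 and 0.29 for all genes tested. The ratios ran from -1.001 for rpl-23A.1 to 0.96 for rpl-11.1. A mean within 0.5 of 0 was found for 57 of the 63 members (90.5%) and for 71.5% of all genes. In limma with Benjamini-Hochberg adjustment over all genes, 2 members were higher, 4 were lower and 57 did not pass. Over all genes tested, 14.8% were called higher and 13.7% lower, or 28.5% in either direction. The members called were thus 3.17% higher and 6.35% lower, both below the share of all genes. At an unadjusted p under 0.05 the counts were 5 higher and 7 lower of the 63, beside 20.3% higher and 18.6% lower of all genes.

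**Figure D1:**
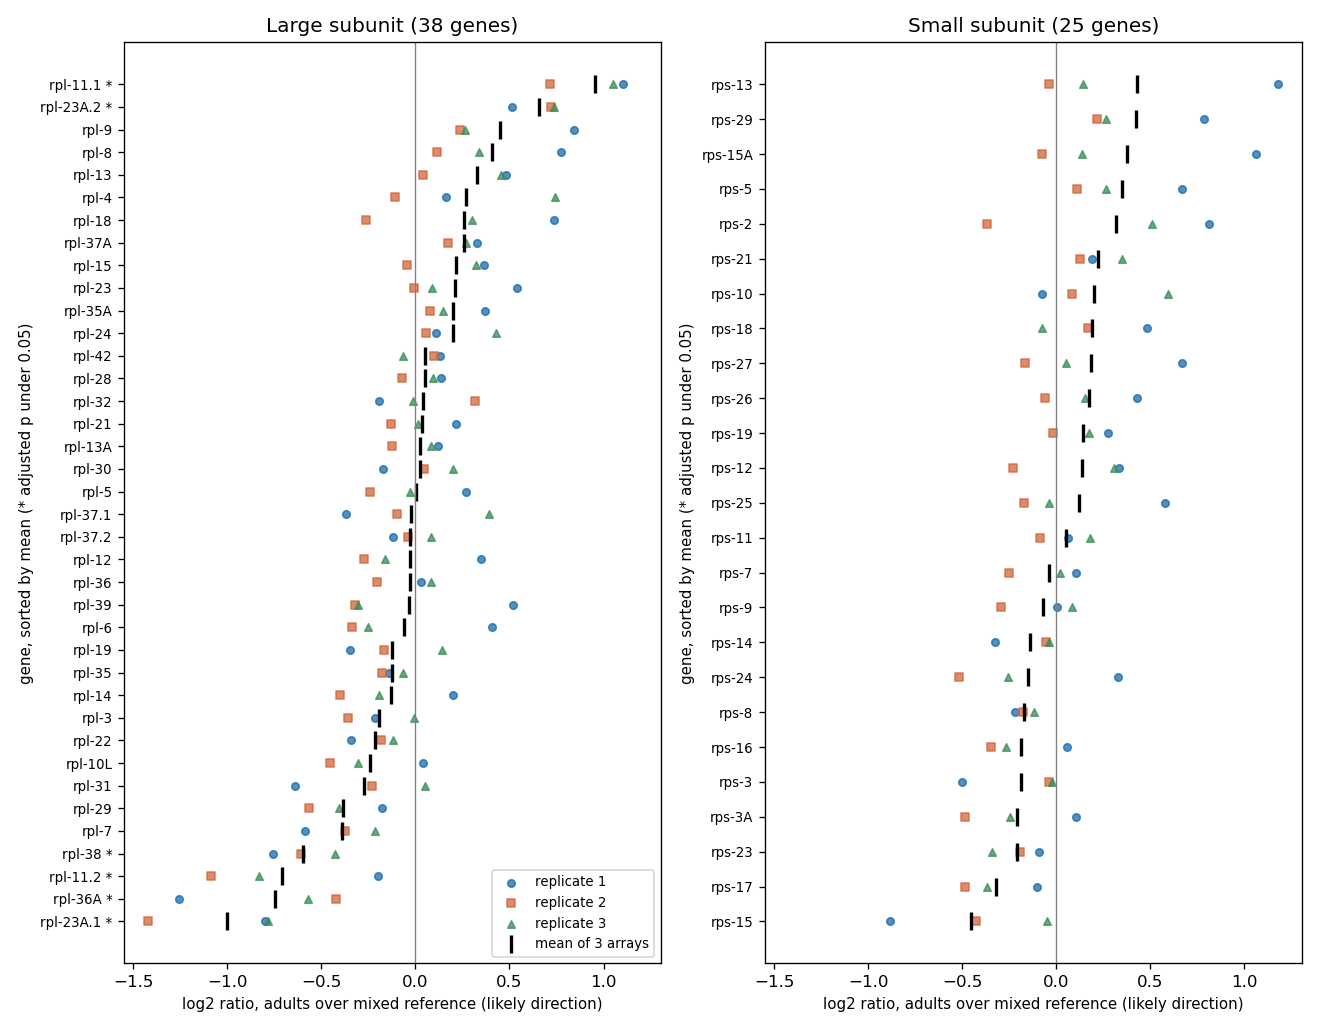
Log2 ratio (x axis) of the 63 ribosomal protein genes (y axis, sorted by mean) in the large subunit (left) and the small subunit (right). Symbols mark the 3 arrays, black bars their mean, and asterisks the 6 genes with an adjusted p under 0.05, which are all in the left panel at its top and bottom. Most genes have points on both sides of 0.

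The highest and the lowest member were paralogues of other members. Both genes at the top of the family, rpl-11.1 and rpl-23A.2, have a partner among the 4 genes called lower. Members form 3 pairs whose names differ only by a numeric suffix, and in 2 of these 3 pairs 1 gene was higher and its partner lower.

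Ribosomal protein L11 sits with L5 and the 5S ribosomal RNA in the large subunit. Its gene rpl-11.1 lies on chromosome V and is known from worm genetics for a part in germline proliferation, and rpl-11.2 lies on X. The log2 ratios of rpl-11.1 were 1.10, 0.72 and 1.05 in replicates 1, 2 and 3. All 3 were positive, and the mean of 0.96 ± 0.21 (SD, n = 3) was 1.94-fold higher in the adults (adjusted p = 0.00272, limma). For rpl-11.2 the ratios were -0.20, -1.09 and -0.83. Replicate 1 was the closest to 0, and the mean of -0.71 ± 0.46 (SD, n = 3) was 1.63-fold lower (adjusted p = 0.0262, limma). Without replicate 2 the mean of rpl-11.2 was -0.52 and without replicate 3 it was -0.64, and neither passed (adjusted p = 0.154 and 0.0753, limma).

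The difference between both rpl-11 genes, rpl-11.1 minus rpl-11.2, was 1.30, 1.81 and 1.88 in replicates 1, 2 and 3, with a mean of 1.66 ± 0.32 (SD, n = 3). The ranges of the 2 genes did not overlap. An exact two-sided sign-flip test over the arrays gave p = 0.25, the smallest that 3 arrays allow, and 0.375 after adjustment over the 3 pairs.

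L23A, a protein at the exit of the large subunit's peptide tunnel, showed the same arrangement. The gene rpl-23A.2 on chromosome I had log2 ratios of 0.51, 0.72 and 0.74, and rpl-23A.1 on X had -0.80, -1.42 and -0.79. Every array was positive for the first and negative for the second. The means were 0.66 ± 0.13 for rpl-23A.2 (adjusted p = 0.0104, limma) and -1.001 ± 0.36 for rpl-23A.1 (adjusted p = 0.00415, limma; SD, n = 3), or 1.58-fold higher and 2.00-fold lower. Their difference, rpl-23A.1 minus rpl-23A.2, was -1.31, -2.14 and -1.52, with a mean of -1.66 ± 0.43 (SD, n = 3; exact sign-flip p = 0.25, adjusted 0.375). The higher gene rpl-23A.2 did not pass without replicate 2 (0.62, adjusted p = 0.066, limma) or without replicate 3 (0.61, adjusted p = 0.0867), whereas rpl-23A.1 passed without any 1 of the replicates.

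The third pair gave no such difference. L37 is a small zinc-binding protein of the large subunit, encoded by rpl-37.1 on chromosome II and rpl-37.2 on chromosome III. Log2 ratios of rpl-37.1 were -0.37, -0.10 and 0.39, and those of rpl-37.2 were -0.12, -0.04 and 0.08. Both genes went from negative in replicates 1 and 2 to positive in replicate 3. Their means were -0.02 ± 0.39 and -0.03 ± 0.10 (SD, n = 3; adjusted p = 0.936 and 0.912, limma), and the mean difference was 0.0012 ± 0.28 with an exact sign-flip p of 1. Paralogues are similar in sequence, so a probe may also take up transcripts of its partner. The size of a difference between partners, or its absence in the rpl-37 pair, is uncertain to that extent. Germline marker genes were higher on the same arrays (7 of 7, with mean log2 ratios of 1.49 to 1.94), and their part in these differences was not tested.

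**Figure D2:**
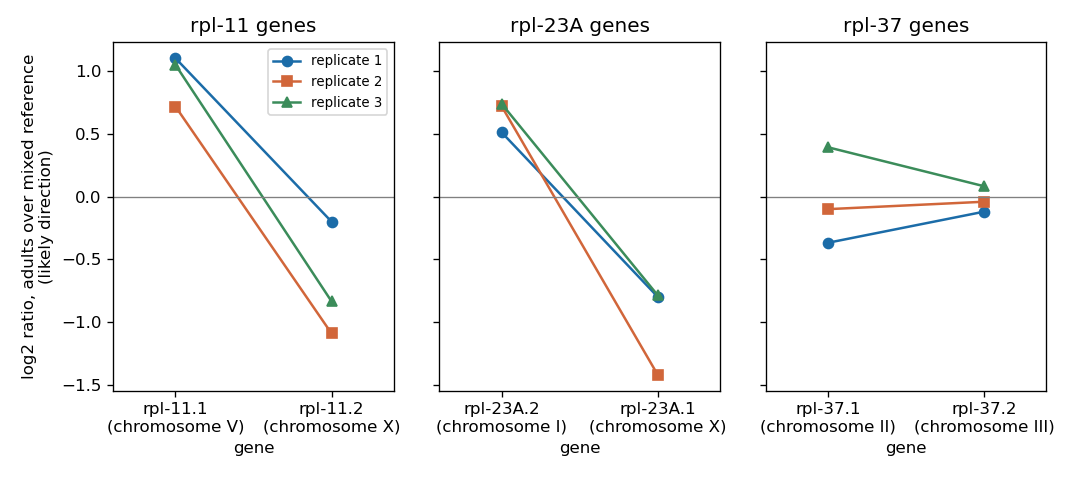
Log2 ratio (y axis) of both genes of each paralogue pair (x axis, with chromosome), with a line for each of the 3 arrays. The lines fall steeply from positive to negative in the rpl-11 and rpl-23A pairs and stay near 0 in the rpl-37 pair.

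The chromosomes of the members follow this split, since rpl-11.2 and rpl-23A.1 are the only members on X. Their per-array medians were -0.50, -1.25 and -0.81, and both were called lower. The 61 autosomal members had a median of 0.03, with 2 higher and 2 lower. Members were spread over chromosomes I (15), II (10), III (17), IV (12) and V (7), with medians between -0.01 and 0.09. Chromosome III had the most members, and their means stayed within -0.21 and 0.45.

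Of 2260 genes tested on X, 136 were higher (6.02%) and 356 lower (15.8%), beside 2128 higher (16.6%) and 1926 lower (15.1%) of 12785 autosomal genes. The share of lower genes was thus close on both, and that of higher genes was smaller on X. The median log2 ratio was -0.06 on X and 0.02 on the autosomes. Per array the X minus autosome difference of medians was 0.02, -0.15 and -0.11 (mean -0.08 ± 0.09, SD, n = 3; exact sign-flip p = 0.5), which is within the spread between arrays. Both X-linked ribosomal protein genes lay below the lower quartile of genes on X, which was -0.33.

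**Figure D3:**
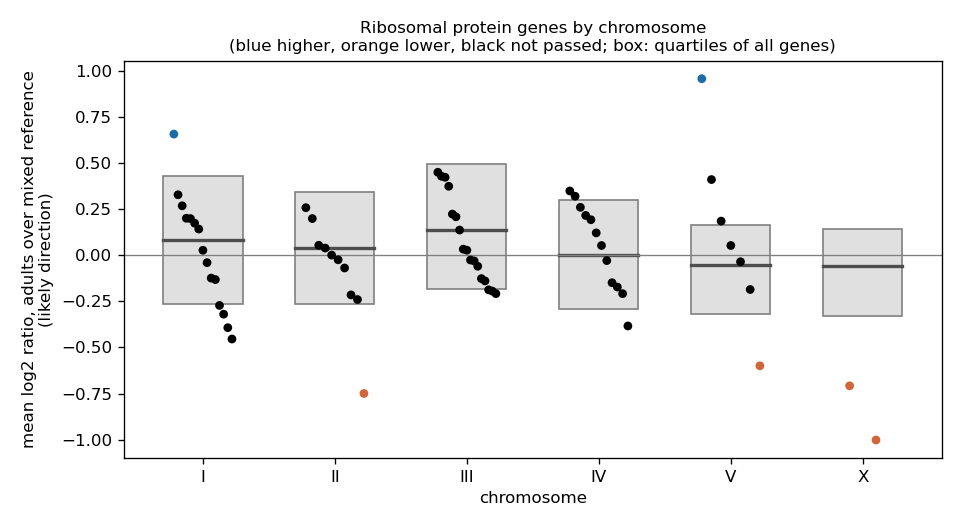
Mean log2 ratio (y axis) of the ribosomal protein genes by chromosome (x axis), coloured by call. Grey boxes give the quartiles and the dark bar the median of all genes tested on that chromosome. Both members on X, at -0.71 and -1.001, lie below the box of their chromosome, and the highest members lie on V and I.

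The other 2 members called lower have no partner among the members. Log2 ratios of rpl-36A, a large subunit protein gene, were -1.25, -0.42 and -0.57, with replicate 1 well below the others. The mean was -0.75 ± 0.44 (SD, n = 3; adjusted p = 0.0197, limma), or 1.68-fold lower, and without replicate 1 it was -0.50 and passed (adjusted p = 0.0121). The gene rpl-38 encodes a small large-subunit protein known in mice for its effect on the translation of Hox mRNAs. Its ratios of -0.76, -0.61 and -0.43 lay closer together, with a mean of -0.60 ± 0.17 (SD, n = 3; adjusted p = 0.0165, limma). Without replicate 2 or replicate 3 rpl-38 did not pass (-0.59 and -0.68, adjusted p = 0.085 and 0.0507).

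Among large subunit genes that did not pass, the highest were rpl-9 and rpl-8. The second of these encodes a protein next to the peptidyl transferase centre, where peptide bonds form. Ratios of rpl-9 were 0.85, 0.24 and 0.27 (mean 0.45 ± 0.34, SD, n = 3; adjusted p = 0.0839, limma). For rpl-8 they were 0.78, 0.12 and 0.34 (mean 0.41 ± 0.34; adjusted p = 0.108, limma). Both were positive on every array and highest in replicate 1. At the other end rpl-7 had -0.59, -0.38 and -0.21 (mean -0.39 ± 0.19, SD, n = 3; adjusted p = 0.0815, limma). Other settings called these genes. In limma rpl-7 passed as lower with blocks of rows centred (adjusted p = 0.0246) and with the median of neighbouring rows subtracted (0.0282). With arrays weighted rpl-7 was lower (0.0459), and rpl-8 and rpl-9 were higher (0.0335 and 0.0404). These settings also called more of all genes tested, as given below.

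The gene rpl-5, whose protein carries the 5S RNA into the ribosome together with L11, had a mean of 0.0005 ± 0.26 (SD, n = 3), unlike either rpl-11 gene. For rpl-3, whose protein reaches the peptidyl transferase centre, the mean was -0.19 ± 0.18. The steadiest large subunit genes were rpl-35 at -0.13 ± 0.06 and rpl-37A at 0.26 ± 0.08, which still did not pass (adjusted p = 0.542 and 0.209, limma). Both rows of rpl-31 gave a mean of -0.27. The first row had -0.48, -0.38 and 0.04 in the 3 replicates and the second -0.80, -0.08 and 0.07, so the rows differed more on single arrays than in the mean.

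All 25 small subunit genes lay within 0.5 of 0, and 0 passed in limma, with 1 higher and 1 lower at an unadjusted p under 0.05. Other settings called some of them. With arrays weighted rps-10, rps-21 and rps-29 were higher and rps-17, rps-23 and rps-3A lower. Without replicate 1 rps-17, rps-24 and rps-3A were lower. Centring blocks of rows made rps-15 and rps-17 lower, and subtracting the median of neighbouring rows made rps-15, rps-17 and rps-3A lower. Of all 19293 genes tested the weighted fit called 4874 higher and 4413 lower. Without replicate 1 the counts were 4276 and 3881. Centring blocks called 3312 of all genes lower, and subtracting the median of neighbouring rows 3319. The highest small subunit gene was rps-13 with ratios of 1.18, -0.04 and 0.14. Replicate 1 alone was far from 0, and the mean was 0.43 ± 0.65 (SD, n = 3; adjusted p = 0.221, limma), the largest SD of all members. The genes rps-15A (1.06, -0.08 and 0.14) and rps-2 (0.81, -0.37 and 0.51), the latter for a protein at the mRNA entry of the small subunit, had SDs of 0.60 and 0.61. They too were highest in replicate 1 and negative in replicate 2.

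The values of rps-29 were 0.79, 0.22 and 0.26, positive on all arrays, with a mean of 0.42 ± 0.32 (SD, n = 3; adjusted p = 0.0933, limma). The lowest small subunit gene was rps-15, at -0.88, -0.43 and -0.05 (mean -0.45 ± 0.42; adjusted p = 0.103, limma), which was negative on all arrays. It passed with blocks of rows centred (-0.45, adjusted p = 0.0325) and with the median of neighbouring rows subtracted (-0.41, adjusted p = 0.0422). The smallest SD of any member belonged to rps-8, at -0.17 ± 0.05. The gene rps-3, for a protein of the mRNA entry channel, stood at -0.19 ± 0.27.

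Over the gene means the median was -0.01 for the large and 0.12 for the small subunit. This gap is wider than the difference of medians taken within each array, and it was not tested. Within arrays the large minus small difference of medians was -0.07, 0.02 and 0.01, with a mean of -0.01 ± 0.05 (SD, n = 3; exact sign-flip p = 1), so no such difference was detectable beyond the spread between arrays. Its sign depended on replicate 1, without which it was 0.02. The range over genes was wider in the large subunit, with an SD over genes of 0.37 against 0.25, and the pairs rpl-11 and rpl-23A lie in the large subunit. Without the 3 pairs, 55 of the remaining 57 members did not pass and 2 were lower.

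The arrays differed in how the family stood. Positive values were found for 41, 16 and 35 of the 63 genes in replicates 1, 2 and 3, and the medians were 0.13, -0.17 and 0.05. The all-gene medians of the arrays were 0.01, 0.03 and 0.01. Members minus all genes was 0.12, -0.20 and 0.05, with a mean of -0.01 ± 0.17 (SD, n = 3; exact sign-flip p = 1). No shift of the family was thus detectable beyond the spread between arrays. Only 26 members had 1 sign on all arrays (11 positive and 15 negative, or 41.3%), beside 57.4% of all genes.

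Replicate 1 was also the array that spread the family most. The SD over members was 0.49 there and 0.33 and 0.34 in replicates 2 and 3. Across the 63 genes the Pearson correlation was 0.79 between replicates 2 and 3, 0.49 between 1 and 2 and 0.52 between 1 and 3. The same correlations over all genes tested were 0.90, 0.69 and 0.68. These are descriptions across genes that share an array and a reference, and genes are not independent replicates.

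Values of the file drift with row position. The median of a member's row and the 50 rows on each side of it ranged from -0.50 to 0.55 in replicate 1, from -0.24 to 0.41 in replicate 2 and from -0.22 to 0.27 in replicate 3. Across members the value and this local median correlated at 0.46, 0.30 and 0.23 on the 3 arrays. The local median also went with chromosome. In replicate 2 it was positive for every member on III (0.10 for rps-29 to 0.36 for rpl-3). It was negative there for every member on V (-0.24 for rps-16 to -0.05 for rpl-11.1) and on X (-0.10 and -0.16). Row position and chromosome thus cannot be told apart, and subtracting the local median may also take out differences between chromosomes. In replicate 1 the local median was 0.55 for rps-29, the highest of any member, 0.43 for rps-13 and 0.37 for rps-15A, beside values of 0.79, 1.18 and 1.06. With the local median subtracted on each array their means were 0.19, 0.18 and 0.14. For rpl-11.1, rpl-11.2, rpl-23A.1 and rpl-23A.2 the local medians in replicate 1 were -0.11, 0.07, -0.18 and -0.17. With the local median subtracted these 4 genes and rpl-36A and rpl-38 all passed in their direction. In all 9 of the 63 members were then lower, beside 3319 of the 19293 genes tested. The median of the family was then -0.02 and the large minus small difference -0.03.

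**Figure D4:**
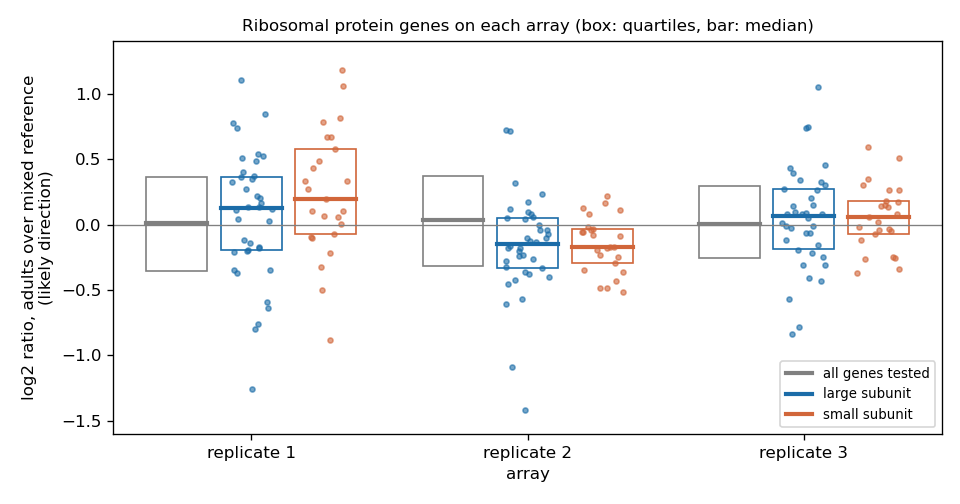
Log2 ratio (y axis) of large and small subunit genes on each array (x axis), with a point per gene and boxes for the quartiles and bars for the median. Grey boxes show all genes tested. The family lies mostly above 0 in replicate 1 and mostly below 0 in replicate 2, where its medians are -0.15 for the large and -0.17 for the small subunit.

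Only 2 sets of members are direct neighbours among the protein-coding genes that RefSeq lists. The neighbours rps-10 and rpl-24, whose proteins are of different subunits, both had a mean of 0.20. Their values were -0.07, 0.08 and 0.59 for rps-10 and 0.11, 0.06 and 0.43 for rpl-24, both highest in replicate 3. The neighbours rps-14 and rpl-36 had means of -0.14 and -0.03. None of these 4 genes passed, and all had adjusted p-values over 0.3 in limma.

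Several ribosomal proteins carry other names in the annotation. Their genes were looked up after the values of the family were known. The gene rplp-0, which encodes the base of the stalk that recruits translation factors to the large subunit, had ratios of 0.62, 0.24 and 0.66 and a mean of 0.51 ± 0.23 (SD, n = 3; adjusted p = 0.039, limma). Its stalk partners rplp-2.1 and rplp-2.2 stood at 0.15 ± 0.34 and 0.14 ± 0.30, and rpsa-1 of the small subunit at 0.24 ± 0.22. These 3 did not pass. Nor did rack-1, a scaffold protein bound to the small subunit (0.39 ± 0.41), or ubq-2, which encodes ubiquitin fused to a large subunit protein (0.06 ± 0.17).

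The lists of mitochondrial ribosomal proteins, translation factors, aminoacyl-tRNA synthetases and assembly genes each had a higher median than the cytosolic ribosomal proteins on all 3 arrays. Mitochondrial ribosomal protein genes, which serve the separate ribosome of that organelle, had a median log2 ratio of 0.32, with 13 of 45 higher and 2 lower. The 2 lower genes were mrps-11 at -0.99 ± 0.05 and mrpl-41 at -0.76 ± 0.12 (SD, n = 3). The difference of medians, cytosolic minus mitochondrial, was -0.23, -0.52 and -0.21 on the arrays (mean -0.32 ± 0.18, SD, n = 3). It was negative on every array, but the exact sign-flip p of 0.25 is the smallest possible here, and it is 0.438 adjusted over 7 such comparisons.

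Aminoacyl-tRNA synthetases, which load tRNAs with amino acids, had a median of 0.50 with 17 of 28 higher, among them tars-1 at 1.07 ± 0.08 and aars-2 at 1.07 ± 0.18 (SD, n = 3). Translation factors had a median of 0.53, with 19 of 34 higher and 2 lower. The initiation scaffold gene ifg-1 stood at 1.51 ± 0.26 and the helicase gene inf-1 at 1.45 ± 0.47. One of the 2 lower genes was iff-2, which encodes the elongation factor eIF5A, at -1.67 ± 0.70 (SD, n = 3; adjusted p = 0.00215, limma), the value furthest from 0 in the list. Its paralogue iff-1 was higher at 0.79 ± 0.20 (adjusted p = 0.00588, limma). The list was drawn by name and also holds the intermediate filament genes ifb-1 (higher) and ifb-2, the other lower gene. Cytosolic ribosomal protein minus translation factor medians were -0.35, -0.59 and -0.46, and those against the synthetases were -0.21, -0.69 and -0.42 (exact sign-flip p = 0.25 for each, adjusted 0.438).

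**Figure D5:**
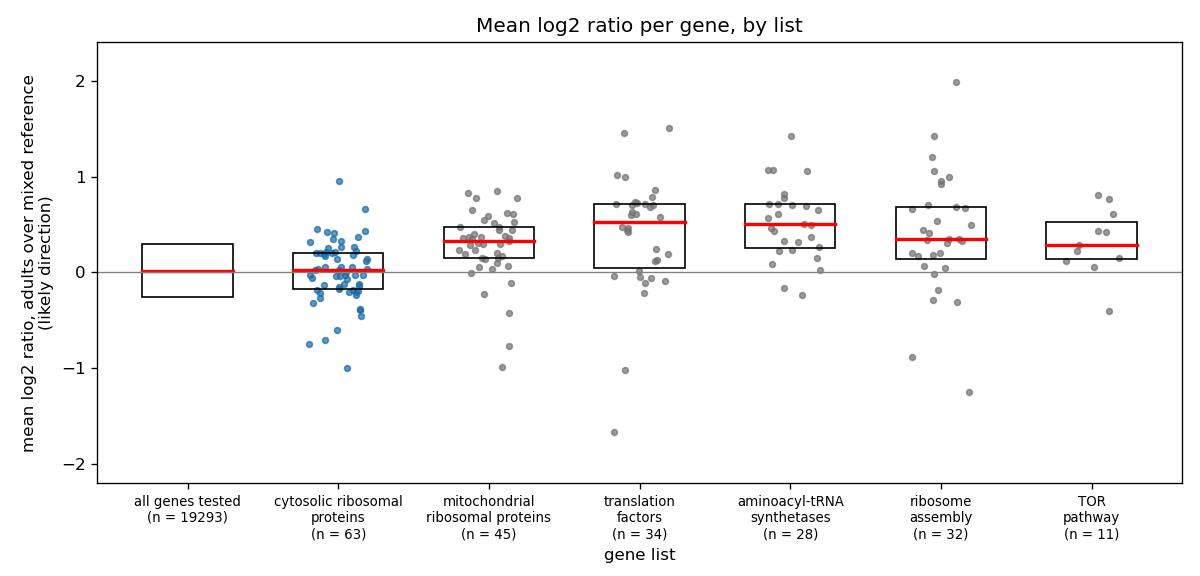
Mean log2 ratio per gene (y axis) in the cytosolic ribosomal proteins and in lists of translation, ribosome assembly and the TOR pathway (x axis). Boxes give the quartiles, red bars the median and points the genes, which are not drawn for all genes tested. The cytosolic ribosomal proteins have a median of 0.03, and the other lists between 0.28 and 0.53.

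Genes that assemble ribosomes build the ribosomal proteins and RNA into subunits. Of 32 measured assembly genes 11 were higher and 2 lower, with a median of 0.35. The highest was fib-1, for the fibrillarin that methylates ribosomal RNA, with ratios of 2.66, 1.54 and 1.77 and a mean of 1.99 ± 0.59 (SD, n = 3; adjusted p = 0.000693, limma), or 3.97-fold higher. Its partner gene nol-56 stood at 1.21 ± 0.30, and eif-6, for a factor that holds new large subunits apart from small ones, at 1.00 ± 0.10. The gene eif-6 is also in the list of translation factors and is counted as higher in both lists. The 2 lower genes were lpd-7, the worm pescadillo gene of large subunit assembly, at -0.88 ± 0.22, and nog-1, a nucleolar GTPase gene, at -1.25 ± 0.67. The ribosomal protein minus assembly difference of medians was -0.11, -0.67 and -0.36 (exact sign-flip p = 0.25, adjusted 0.438).

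The TOR kinase pathway controls how much ribosomal protein is made in many organisms. Of 11 measured genes of it 3 were higher and 8 did not pass, with a median of 0.28. Per array their median was 0.06, 0.53 and 0.46, which was below that of the ribosomal proteins in replicate 1 and above it in replicates 2 and 3. The 3 were larp-1 at 0.76 ± 0.17, nprl-2 at 0.81 ± 0.36 and nprl-3 at 0.61 ± 0.09 (SD, n = 3). In mammals the larp-1 counterpart binds mRNAs of ribosomal proteins, and the nprl genes encode inhibitors of TOR signalling. The kinase gene let-363 itself stood at 0.42 ± 0.34 (adjusted p = 0.0991, limma).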

How the data were processed

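The values are log2 ratios of both channels of 3 two-colour arrays, deposited by the authors as 1 table of 20000 rows with the array columns and 0 columns of no sample. Base 2 was inferred, because raising it to each value gave ratios that sit on a grid of 0.001 steps (59554 of 59554 ratios below 10, tolerance 0.01 of a step). Scanner, background correction, normalisation and direction were not given in the sources used here. Gene symbols came from the platform annotation (15655 rows with 1 symbol, 198 with several, 4147 with none) and were updated through the RefSeq table of WBcel235, used for names, chromosomes and neighbours (15569 rows matched by gene identifier, 7 by accession, 79 unmatched). Rows of a symbol were averaged, and 19293 genes with values on all arrays were tested against 0 in limma 3.58.1 (R 4.3.3; lmFit, eBayes, two-sided, Benjamini-Hochberg, threshold 0.05). Of the 19293, 15112 had a symbol and 4181 were rows without a single symbol, each counted as 1 gene. Among those with a symbol 15.0% were higher and 15.1% lower. The prior had 5.86 degrees of freedom. A test of ratios against 0 leaves out the spread of the reference. The fit was run beforehand on simulated data drawn from its own variance prior, without row drift, which cannot show that the calls hold for these arrays. Differences of medians and of paralogues were tested with exact sign flips over arrays, whose smallest p is 0.25.

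Members and lists were chosen with earlier results of these data known. Named members were both genes of each pair, the 6 highest and 6 lowest means, the 3 largest and 3 smallest SDs, the 3 smallest adjusted p-values in each direction, members on X and those with several rows. For other lists they were the 2 smallest p-values. Further genes named were chosen after their values were seen. Alternatives were leaving out each array, other centring, scaling, array weights, other variance priors, unaveraged rows and genes with 2 values.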

Additional observations from a re-analysis of the deposited data

How the results depend on the processing

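The directions of the rpl-11 and rpl-23A differences held under every alternative run, with 1.55 to 1.84 and -1.83 to -1.42 when a replicate was left out. Leaving out 1 replicate gave 1796 to 4276 higher and 1687 to 3881 lower genes among all tested, and 1 to 2 higher and 2 to 9 lower members. The 9 without replicate 1 included all 4 of the main fit's members plus rpl-10L, rpl-29, rps-17, rps-24 and rps-3A. With 32 blocks of rows centred 8 members were lower, and with the running median of neighbouring rows subtracted (chosen after seeing the data) 9. Among all genes tested these settings called 3312 and 3319 lower. Array weights, which were 0.28, 1.12 and 3.16 for replicates 1, 2 and 3, gave 4874 higher and 4413 lower genes and 10 members each way. Without moderation of the variance 0 genes and 0 members passed in limma in either direction, with 4903 and 6 at an unadjusted p under 0.05. The subunit difference ran from -0.026 to 0.017 when a replicate was left out and was 0.010 with array weights. The rpl-37 difference ran from -0.15 to 0.13 when a replicate was left out. The value of rpl-37.1 ran from -0.234 to 0.15 and that of rpl-37.2 from -0.081 to 0.021 when a replicate was left out. The value of rpl-37.1 was 0.0033 with blocks centred, 0.046 with the running median, 0.011 with arrays scaled and 0.22 with weights, and that of rpl-37.2 was 0.040 with weights. The family median ran from -0.06 (blocks) to 0.09 (without replicate 2). The cause of these changes was not tested. No paired analysis was possible because there was 1 group. Spot brightness was not analysed here, so a limit set by dim or saturated spots is unknown.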
